A study of Saccharomyces cerevisiae with 2 samples.

Results

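The small nuclear and small nucleolar RNA genes of *Saccharomyces cerevisiae* were described in the *sdh3*Δ strain, which lacks a membrane anchor subunit of succinate dehydrogenase. Members were all probe sets whose gene symbol in the array annotation is SNR followed by a number, with or without a letter. The rule gave 63 probe sets for 61 genes, out of 5656 genes that had a probe set of their own. *SNR7-L*, the long form of U5, was included, and without it 60 genes remained. Of the 81 SNR genes in the gene table, 20 had no probe set named for them alone and were not analysed here, among them *SNR30*, *SNR10* and *SNR17B*.

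Total RNA from 2 samples, which form 1 group, was hybridized to Yeast Genome S98 arrays, and no reference strain is among these samples. The strain was made from CENPK 113–5D, a haploid of mating type a that carries *MAL2-8C*, *SUC2* and *URA3-52*, with a uracil marker from *Kluyveromyces lactis*, and uracil was added to the medium because the mutant requires it. Cells grew aerobically in batch culture in minimal medium and were taken with 20 g/liter of glucose left. No source used here says whether the 2 samples came from separate cultures, so the spread between them may be technical. The deposited values are normalized intensities on a linear scale. *SDH3*, the deleted gene, had 22.0 on array 1 (replicate 1) and 29.3 on array 2 (replicate 2).

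Spliceosomal snRNAs pair with introns and with each other in the nucleus and form the core of the splicing machinery. Box C/D snoRNAs guide the methylation of ribose in ribosomal RNA, and box H/ACA snoRNAs guide the conversion of uridine to pseudouridine. A few, such as U3 and U14, are needed for the cleavages that release 18S rRNA. In yeast, most snoRNA genes stand alone, some are cut from a shared precursor made by a cluster of genes, and some are released from the introns of protein genes. Their mature forms carry no poly(A) tail, whereas the usual labelling for these arrays starts from poly(A). Mature RNA, tailed precursors and transcripts of overlapping or adjoining genes cannot be told apart in these intensities. The probes of different genes also differ in brightness, so an order of intensities is not an order of RNA amounts.

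A value was called above background when it was higher than the brightest of 19 probe sets for bacterial and mouse genes that yeast lacks. That limit was 54.8 on array 1 and 92.1 on array 2. A gene above it on array 1 alone has only a bound on array 2, and its difference between arrays is given as at least the ratio of its array 1 value to the array 2 limit, where that ratio is over 1. Of the 61 genes, 20 were above it on both arrays, 20 on array 1 alone, 0 on array 2 alone and 21 on neither. The 20 genes above it on both arrays are 32.8% of the members, where 40% of all genes passed on both. Of all 5656 genes, 1876 were above it on array 1 alone, 11 on array 2 alone and 1508 on neither. The median intensity of the members was 86.6 on array 1 and 61.4 on array 2, against 85.8 and 71.2 for all genes. Above the median of all genes on both arrays were 21 members (34.4%), beside 41.1% of all genes. No member was in the brightest 10% of genes on both arrays, and 2 members exceeded 500 on an array. The shares of all genes were not computed for these last counts.

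**Figure D1:**
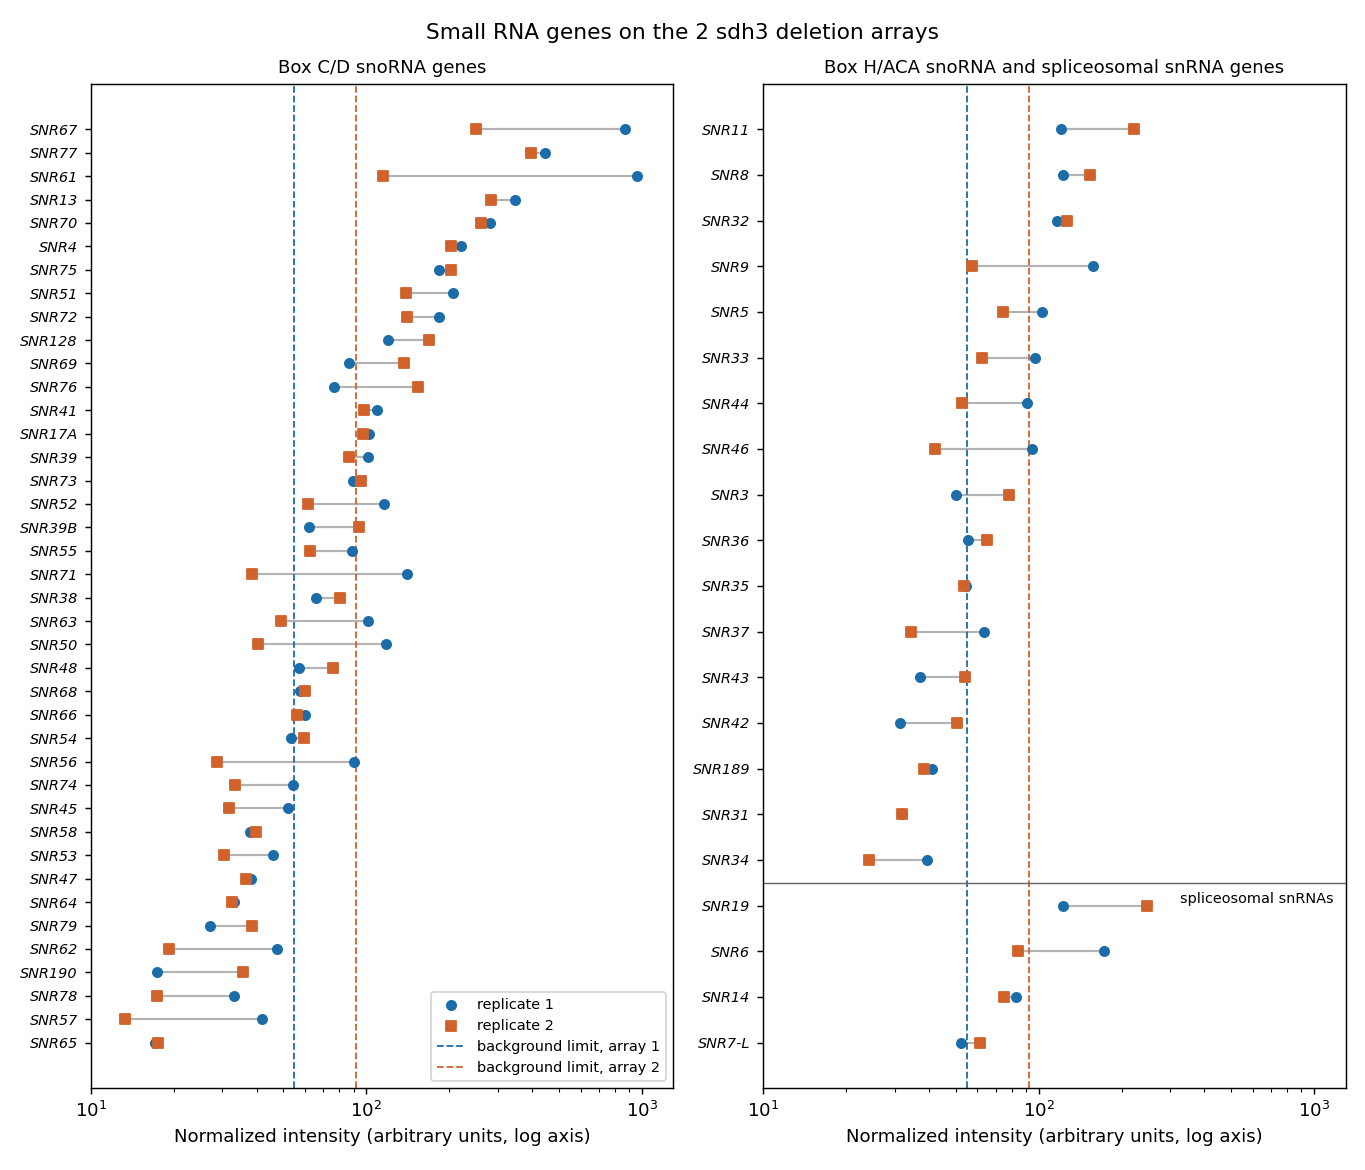
Normalized intensity (log axis) of each of the 61 genes on array 1 (circles) and array 2 (squares), joined by a grey line, with box C/D genes on the left and box H/ACA and spliceosomal genes on the right; the dashed lines are the background limits of 54.8 and 92.1. Of the genes shown, 20 lie above both limits, 16 of them in the left panel.

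Among the 4 spliceosomal RNAs that met the naming rule and had a probe set, only U1 was above background on both arrays. The gene of the U2 RNA is named *LSR1*, so the rule did not cover it and its values were not examined. *SNR19*, which encodes U1, the RNA that recognizes the start of an intron, had 122 on array 1 and 247 on array 2, a mean of 185 ± 87.8 (SD, n = 2). The replicates of U1 thus differed by 2.01-fold, with array 2 the higher. *SNR6*, which encodes U6, the RNA of the catalytic center, had 172 on array 1 and 84.5 on array 2. U6 was above background on array 1 alone and at least 1.87-fold higher there. U6 is made by RNA polymerase III, unlike the other spliceosomal RNAs. *SNR14*, for U4, which holds U6 inactive until the spliceosome forms, had 83.0 and 75 and was above the limit on array 1 alone. *SNR7-L*, for the U5 RNA that aligns the exons, had 52.3 and 61.4 and was not above background on either array. Its probe set has the suffix that the manufacturer gives to probes shared between transcripts, and the short form of U5 lies within the same gene.

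Both measured snoRNAs that serve pre-rRNA cleavage were above background on each array. U3 base-pairs with the precursor of 18S rRNA, and its gene *SNR17A* had 102 on array 1 and 97.5 on array 2, a mean of 100 ± 3.48 (SD, n = 2). The second U3 gene, *SNR17B*, is a near copy whose transcript may bind the same probes. U14, encoded by *SNR128*, had 120 and 169, a mean of 144 ± 34.2 (SD, n = 2). The array 2 value of U3 was the nearest of these to its limit.

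Box C/D genes were above background on both arrays in 16 of 40 cases, or 40%, which equals the share of all genes. Their median level over both arrays was 6.19 on the log2 scale. *SNR77*, a methylation guide, had 445 on array 1 and 398 on array 2, and *SNR13*, another guide, had 347 and 285. *SNR70* had 281 and 261. *SNR4*, which takes part in the acetylation of 18S rRNA, had 220 and 203, while *SNR45*, its partner in that modification, had 52.0 and 31.8 and was above neither limit. *SNR75* had 184 and 203, and *SNR51* had 206 and 140. Apart from *SNR51*, whose values differed by 1.47-fold, and *SNR45*, the lower value of each of these genes was at least 0.8 of the higher. *SNR52*, a methylation guide transcribed by RNA polymerase III, had 116 on array 1 and 61.4 on array 2. It was below the array 2 limit and at least 1.26-fold higher on array 1.

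Box H/ACA genes were above background on both arrays in 3 of 17 cases, or 17.6%, beside 40% of all genes. The 3 were *SNR11*, *SNR8* and *SNR32*, all pseudouridine guides for rRNA, and the median level of the class was 5.96 on the log2 scale. *SNR11* had 120 on array 1 and 223 on array 2, a mean of 171 ± 72.4 (SD, n = 2). *SNR8* had 123 and 153, and *SNR32* had 116 and 127, so that all of these were higher on array 2. Of all genes above background on both arrays, only 36.7% were lower there. *SNR35*, which guides the pseudouridine of 18S rRNA that is modified further, had 54.6 and 53.6 and stayed just below the limit on array 1. *SNR31*, with 32.1 and 31.9, and *SNR189*, with 41.1 and 38.5, were nearly equal on the arrays and above neither limit. *SNR9* had 158 on array 1 and 57.1 on array 2, and *SNR46* had 95 and 42.1. Both were above background on array 1 alone, where *SNR9* was at least 1.71-fold and *SNR46* at least 1.03-fold higher.

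Replicate 2 over replicate 1 had a median log2 ratio of -0.10 over the 61 genes, beside -0.12 over all genes. Values were lower on array 2 for 38 genes (62.3%) and higher for 23, and 56.2% of all genes were lower there. Of the 20 members above background on both arrays, 10 were lower and 10 higher on array 2, and of all such genes 36.7% were lower. With each array scaled to its own median, 29 were lower and 32 higher, so the balance depends on the scaling. Of the members, 14 (23.0%) differed by more than 2-fold, 11 lower and 3 higher on array 2. Among all genes 16.7% differed that much, 12.6% lower and 4.17% higher. With values below the background limits raised to them, 4 members (6.56%) and 9.53% of all genes differed by more than 2-fold, so the order of the shares depends on values under background. The SD of the log2 ratio was 0.81 over the members and 0.73 over all genes. Across the 61 genes the log2 values of the arrays had a Pearson correlation of 0.75, and across all genes one of 0.90. These are given as a description of probe sets that share the same 2 libraries. Such a correlation also depends on the range of values. On array 1 the members ran from 17.1 to 963 and all genes from 1.10 to 19864, so the correlations do not rank the agreement of the replicates. At the other end, the lower value was more than 0.8 of the higher for 24 members (39.3%) and for 33.6% of all genes.

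**Figure D2:**
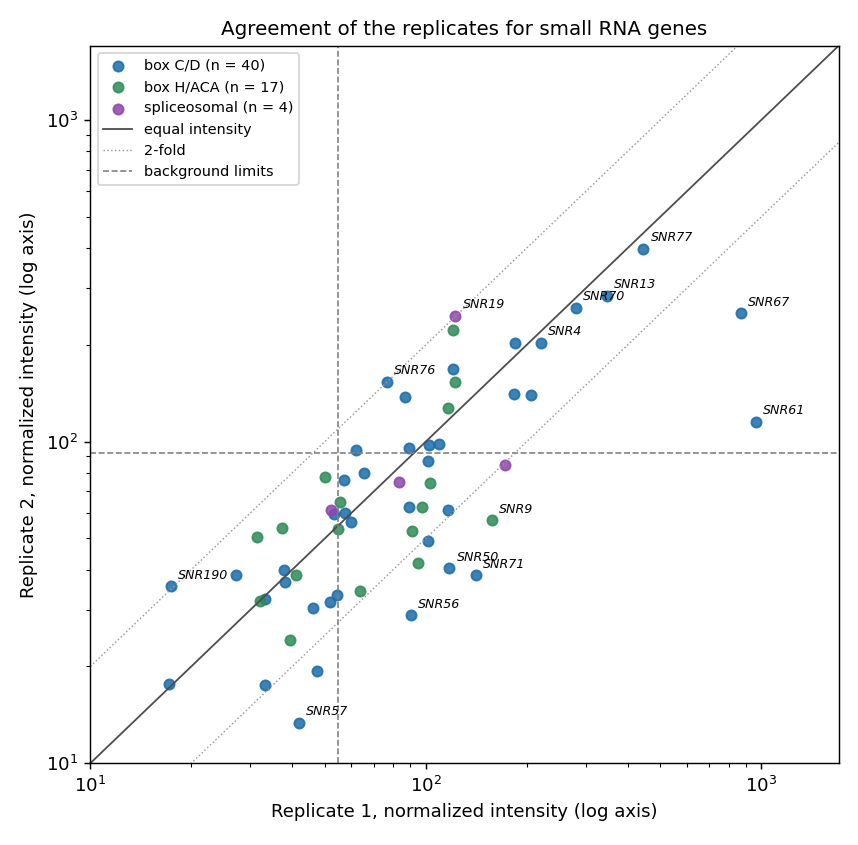
Intensity on array 2 against array 1 (both log axes) for the 61 genes by class, with the line of equal intensity, dotted lines at a 2-fold difference and dashed lines at the background limits. *SNR61* at 963 and 115 and *SNR67* at 870 and 250 lie farthest below the line among genes above both limits, while *SNR77* and *SNR70* lie close to it.

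*SNR61*, a methylation guide, had the largest difference of any member. Its intensity was 963 on array 1, at percentile 95.4 of all genes, and 115 on array 2, at percentile 67.2, which is 8.35-fold lower. *SNR67*, also a methylation guide, had 870 on array 1 and 250 on array 2, a 3.47-fold difference. Both were above background on both arrays, and they were the only members over 500 anywhere. *SNR71* had 141 and 38.5, *SNR50* had 118 and 40.4, and *SNR56* had 90.1 and 28.8. These 3 guides were above background on array 1 alone. *SNR71* was at least 1.53-fold and *SNR50* at least 1.28-fold higher there, and no bound can be given for *SNR56*. In the other direction *SNR76* had 76.6 on array 1 and 154 on array 2, a 2.01-fold difference, and *SNR190* had 17.4 and 35.6, above neither limit. *SNR42* had 31.4 and 50.7, also above neither. The 4 members past 2-fold with values raised to the limits were *SNR61*, *SNR67*, *SNR76* and *SNR19*.

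Control probe sets also differed between the arrays. All 19 probe sets of genes absent from yeast were brighter on array 2, by a log2 ratio between 0.45 and 0.89 with a median of 0.67. All 9 probe sets of the hybridization spikes were brighter there too, with a median of 0.49. Of the 91 tRNA genes measured, another set of short untailed RNAs, 78 (85.7%) were higher on array 2, with a median of 0.36, beside 43.8% of all genes. Of these tRNA genes 71 (78%) were above background on both arrays, beside the 40% of all genes. Over the 71 the median log2 ratio was 0.43, beside 0.24 over all genes above background on both arrays. The members above background on neither array had a median of -0.027, and all genes above background on neither had one of 0.019. The part of the array background in the replicate differences was not tested.

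**Figure D3:**
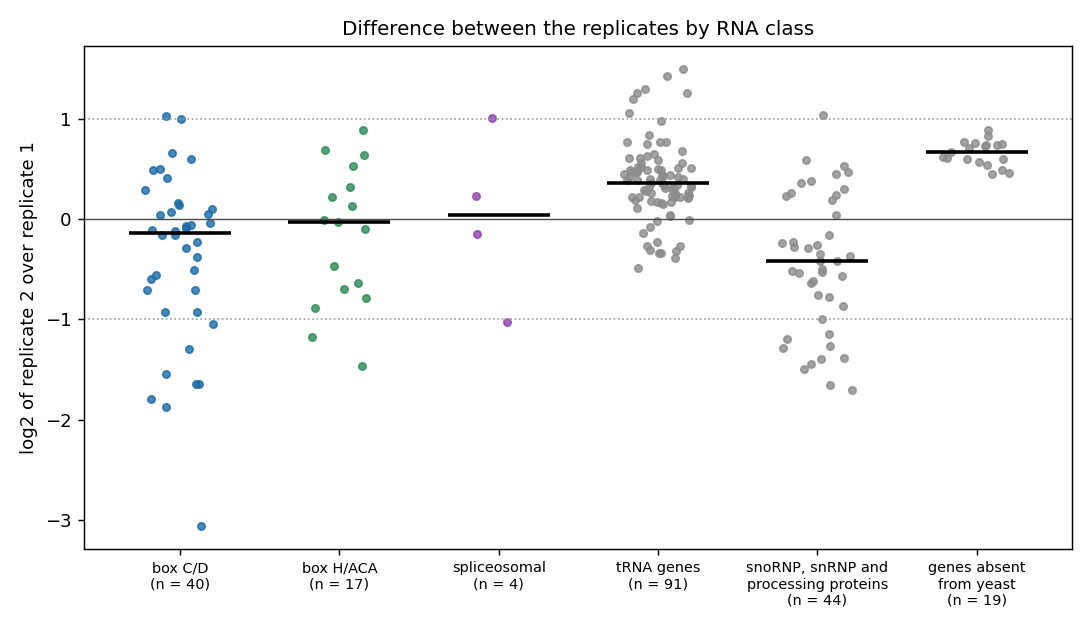
The log2 ratio of array 2 over array 1 for each gene, or for each probe set of a gene absent from yeast, with black bars at the medians, a line at 0 and dotted lines at 2-fold. Box C/D genes (median -0.14) and box H/ACA genes (median -0.027) spread to both sides, whereas all probe sets of absent genes lie above 0.

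All 17 genes of the 5 snoRNA clusters had a probe set. In each cluster the genes lie on 1 strand with no other annotated gene between them, and all are of box C/D. Of the 17, 11 (64.7%) were above background on both arrays, against 8 of 36 genes (22.2%) that stand alone and 40% of all genes. The median levels of clustered and lone genes were 6.76 and 5.94 on the log2 scale. The lone genes include both box C/D and box H/ACA genes, so this contrast mixes arrangement with class. The lone box C/D genes above both limits were *SNR13*, *SNR4*, *SNR69*, *SNR17A* and *SNR39B*. The lone H/ACA genes above both were *SNR11*, *SNR8* and *SNR32*. Arrangement within a class was not tested. In the cluster of 7 the intensities were far apart, though they come from probes that may differ in brightness. Its first gene, *SNR78*, had 33.3 on array 1 and 17.5 on array 2. *SNR77*, the next, had the 445 and 398 given above. *SNR74* had 54.3 and 33.4, *SNR73* had 89.3 and 95.7, and *SNR72*, the last, had 184 and 141. Of this cluster 5 genes were above background on both arrays and 2 on neither.

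In the other clusters, 6 genes were above background on both arrays. *SNR61*, the last gene of its cluster, and *SNR67*, the first of its cluster, were lower on array 2 as given above. In the same cluster as *SNR61*, *SNR55* had 89.0 and 62.6, above the limit on array 1 alone, and *SNR57* had 41.8 and 13.4, above neither. *SNR53*, the partner of *SNR67*, was above neither limit at 46 and 30.5. *SNR41*, *SNR70* and *SNR51* were all above both limits, with log2 ratios of array 2 over array 1 of -0.16, -0.10 and -0.56. The ratio of *SNR70* turned to 0.012 when each array was scaled to its own median. *SNR128* had a ratio of 0.49, and *SNR190*, the gene before it, was above neither limit. Of the 5 genes above both limits in the cluster of 7, *SNR73*, *SNR75* and *SNR76* were higher on array 2, and *SNR72* and *SNR77* were lower.

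**Figure D4:**
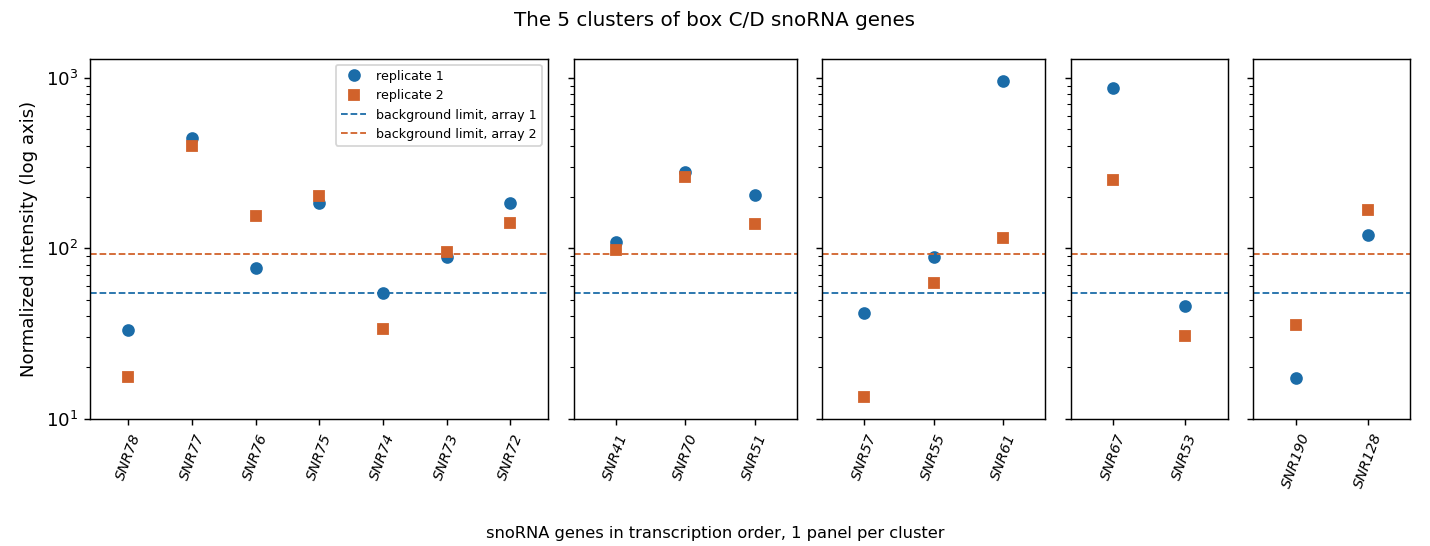
Intensity (log axis) on array 1 (circles) and array 2 (squares) of the 17 genes of the 5 clusters, in transcription order within each panel, with dashed lines at the background limits. The cluster from *SNR41* to *SNR51* lies above both limits throughout, while in the others genes of 1 precursor lie on both sides of the limits.

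Of the snoRNA genes within introns, 4 could be compared with their host. *SNR38* had 65.5 on array 1 and 80.2 on array 2, and its host *TEF4*, a translation elongation factor gene, had 968 and 1674. *SNR39*, in an intron of the ribosomal protein gene *RPL7A*, had 102 and 86.9, with 620 and 764 for the host over its 3 probe sets. *SNR54* had 53.2 and 59.6, and *IMD4*, which encodes an enzyme of guanine nucleotide synthesis, had 260 and 383. *SNR44*, the H/ACA gene among them, had 91.0 and 52.6, and the ribosomal protein gene *RPS22B* had 865 and 218. None of the 4 was above background on both arrays, whereas all hosts were. Since each of them has only a bound on array 2, their differences were not set against those of the hosts, whose log2 ratios were 0.79 for *TEF4*, 0.30 for *RPL7A*, 0.56 for *IMD4* and -1.99 for *RPS22B*.

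The remaining members lay mostly near or below the limits. Of the box C/D guides, *SNR69* had 86.6 on array 1 and 137 on array 2 and was above both limits. *SNR63* had 101 and 49.2 and was above the limit on array 1 alone, at least 1.10-fold higher there. *SNR48*, *SNR66* and *SNR68* also passed on array 1 alone, with 57.1 to 60 there and 56.3 to 75.9 on array 2. *SNR47*, *SNR58*, *SNR64* and *SNR79* were above neither limit, with 27.2 to 38.1 on array 1 and 32.5 to 39.8 on array 2. *SNR65* was the dimmest box C/D member on array 1 and nearly equal on the arrays, with 17.1 and 17.6. Of the H/ACA members, *SNR5*, *SNR33*, *SNR36* and *SNR37* were above background on array 1 alone, with 55.6 to 103 there and 34.4 to 74.6 on array 2. *SNR3*, *SNR34* and *SNR43* were above neither limit, with 37.2 to 50.1 on array 1 and 24.2 to 77.9 on array 2.

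A pair of genes had 2 probe sets each. For *SNR62* these gave 51.1 and 43.9 on array 1 and 17.2 and 21.7 on array 2, all below the limits. For *SNR39B* they gave 51.5 and 74.8 on array 1 and 83.6 and 106 on array 2. On both arrays the first was below the limit and the second above it. The second probe set of *SNR39B* is of the shared kind, so its value is uncertain. Averaged over its probe sets, *SNR39B* had 62.1 and 94.3. It was therefore counted among the box C/D genes above background on both arrays, and this count rests on the shared probe set.

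Genes of the proteins that bind, process and assemble these RNAs were listed as well. Of 45 listed genes, 44 had a value, 17 (38.6%) were above background on both arrays, beside 40% of all genes, and 31 had the lower value on array 2. Their log2 ratio had a median of -0.42, beside -0.12 for all genes, of which 56.2% were lower. Over the 17 genes above background on both arrays the median was 0.27, beside 0.24 over all such genes. Over the rest it was -0.62, beside -0.31 over all genes not above both limits, so the lower values lie mostly with genes that have no measured array 2 value. Of the core proteins, *NOP1*, the methyltransferase of box C/D particles, had 588 on array 1 and 708 on array 2, and *SNU13*, which binds both box C/D snoRNAs and U4, had 992 and 1439. *NOP56*, a scaffold protein of box C/D particles, had 134 and 49.1, the latter below the limit. *NOP58*, also a core gene of box C/D particles, had 316 and 184 and was above both limits. Of the 4 box C/D core genes, 2 were thus higher and 2 lower on array 2. *CBF5*, the pseudouridine synthase of H/ACA particles, had 197 and 60.4, the latter below the limit. *GAR1* had 208 and 146, and *NHP2* had 678 and 508, so that, with *CBF5*, all 3 measured H/ACA core genes were lower on array 2. *RNT1*, the endonuclease that cuts snoRNA precursors, had 60.8 and 39, the latter below the limit, and no bound can be given for its difference. *NRD1*, which ends snoRNA transcription, had 212 and 277. *LHP1*, the La protein that binds fresh polymerase III transcripts, had 182 and 64.3, the latter below the limit. For the Sm and Lsm rings that bind spliceosomal RNAs, 12 of 14 genes had the lower value on array 2, beside 56.2% of all genes. Their median was -0.74. Only 3 of the 14 (21.4%) were above background on both arrays, beside 40% of all genes. Of these, *SMX2* (0.59) and *SMX3* (0.45) were higher on array 2 and *LSM5* (-1.39) was lower. Of the others, 9 were above background on array 1 alone and 2 on neither, so array 2 gave only a bound for them.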

How the data were processed

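RNA of 2 *sdh3*Δ samples was hybridized to Yeast Genome S98 arrays. Scans were brought to a common target by the authors in MAS5, then normalized and summarized from perfect-match probes in dChip, and the deposited linear intensity values cover 9335 probe sets. The array annotation gives 1 gene for 6504 of them, several for 328 and none for 2443, beside 60 controls. Genes were named through gene IDs in the R64 gene table, in which all 63 member probe sets were found, and coordinates served only to find neighbours. Where a gene had several probe sets, their log2 values were averaged. RNA classes and clusters came from a written list. Named genes were the snRNAs, the snoRNAs of 18S rRNA cleavage, the 10 brightest members, the 5 largest replicate ratios each way, the clusters and intron pairs; the other members and protein genes named were chosen after their values were seen.

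With 1 group no test between groups was possible and none was run, so no p-value is given and differences were set beside those of all genes. The number of arrays limits the precision. Reference strain values published with these data were not used here. The functions were tested on simulated data. Alternatives changed scaling (limma 3.58.1 in R 4.3.3 for quantile normalization), background limit, pseudocount (16), probe set choice and fold. Members and lists were chosen with earlier results of these data known. Python 3.11.15, numpy 2.4.6, pandas 2.3.3 and matplotlib 3.10.9 were used.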

Additional observations from a re-analysis of the deposited data

How the results depend on the processing

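The number of genes above background on both arrays was 22 with the 95th percentile of the absent-gene probe sets as limit and 16 with the higher limit on both arrays; on a single array it was 20 or 40. The median log2 ratio of array 2 over array 1 turned from -0.10 to 0.012 with arrays scaled to their medians, to 0.53 with values raised to background (all genes 0.48) and to 0.015 over genes above background on both arrays (all genes 0.24). Scaling moved the median of all genes from -0.12 to -0.0036. The count past 2-fold was 4 (6.56%, beside 9.53% of all genes) with values raised to background, and 28 genes (45.9%, beside 41.2% of all genes) passed 1.5-fold. With values raised to background the median log2 levels were 6.26 for box H/ACA, 6.40 for intronic and 6.24 for lone genes. From 1 array alone they ranged from 5.75 to 5.99 for box H/ACA, from 6.31 to 6.66 for spliceosomal, from 6.78 to 6.85 for clustered, from 6.11 to 6.27 for intronic and from 5.75 to 5.93 for lone genes. Causes of these changes were not tested beyond the construction of each setting. No paired analysis was possible because the series holds 1 group. Both arrays carry most members near the background limit, which bounds what can be said of 41 genes.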
